A study of Mus musculus with 3 samples.

Results

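Interferon-induced genes were followed in Müller glia through 9 genes, Ifit1, Ifit3, Isg15, Bst2, Gbp2, Iigp1, Ifi203, Irf1 and Irf7, chosen by name as the rows of a gene table that holds 18478 genes. The cells came from adult mice that carried Yap5SA+/tg, a transgene for an active form of YAP, the coactivator that Hippo signalling holds back, ROSA26R-tdTomato+/tg, a red reporter switched on by Cre, and Glast-CreERT+/tg, which places tamoxifen-inducible Cre under the promoter of a glial glutamate transporter. After tamoxifen the eyes received NMDA, an excitotoxin that injures inner retinal neurons, and 2 days later tdTomato+ cells were sorted and taken through 10X 3′ single-cell RNA sequencing. All cells belong to this 1 group, measured in 3 runs of the 10X chemistry, so that no uninjured, vehicle or Yap wild-type retina enters any comparison. The labels do not say whether the runs came from separate animals, and the p-values below measure the spread between these 3 runs, which may be technical. A comparison where they do not follow each gene's own spread is marked there. Glast is also expressed by retinal astrocytes, and the reporter marks cells that had Cre activity, whatever their state at the time of the sort.

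Type I interferons act through the receptor IFNAR and the kinases JAK1 and TYK2, which lead to the binding of interferon-stimulated response elements in the promoters of target genes by a complex that holds IRF9. Interferon gamma acts through its own receptor and gamma-activated sites, and several target genes hold sites of both kinds or also answer to IRF1 or NF-kB. Müller glia are the main glia of the retina, spanning its depth, and after injury they take on reactive states and can release cytokines and chemokines such as CCL2, which draws monocytes.

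Promoter stretches of 6 of the 9 genes are shown first, 5 with interferon-stimulated response elements and that of Irf1 with a gamma-activated site, as the sequence features the genes share or lack. Of the 9 genes, 8 were matched by symbol in the RefSeq promoter table of build GRCm38.p6, and the 250 bases before each start were searched on both strands. The motifs were the interferon-stimulated response element (GAAA, any 2 bases, GAAA), the gamma-activated site (TTC, any 3 bases, GAA) and the NF-kB site (GGGA, any 1 base, TTTCC). Each stretch is written 5′ to 3′ on the strand of its gene, and the capitals mark motif matches, which on the other strand of a response element read TTTC, any 2 bases, TTTC. The stretches are Ifit1 at chr19:34640765-34640833 on the plus strand, Ifit3 at chr19:34583353-34583436 on the plus strand, Isg15 at chr4:156200855-156200916 on the minus strand, Bst2 at chr8:71537567-71537628 on the minus strand, Gbp2 at chr3:142620594-142620623 on the plus strand and Irf1 at chr11:53769904-53769952 on the plus strand.
Ifit1: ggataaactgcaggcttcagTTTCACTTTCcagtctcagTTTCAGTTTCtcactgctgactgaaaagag
Ifit3: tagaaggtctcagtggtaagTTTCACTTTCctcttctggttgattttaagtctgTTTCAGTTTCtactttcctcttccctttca
Isg15: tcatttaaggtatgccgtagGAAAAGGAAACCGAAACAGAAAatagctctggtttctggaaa
Bst2: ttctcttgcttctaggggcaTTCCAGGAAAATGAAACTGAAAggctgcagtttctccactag
Gbp2: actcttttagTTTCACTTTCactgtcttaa
Irf1: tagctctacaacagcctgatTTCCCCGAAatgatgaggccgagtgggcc

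Ifit1 and Ifit3, both on chromosome 19, each hold 2 separate response elements, and the 10 letters of each element are the same in both genes. Isg15 holds 3 matches that overlap in a single run of capitals. Bst2 holds 2 overlapping response elements and a gamma-activated site that overlaps the first of them. Gbp2 holds 1 response element, which lies downstream of the start that the GENCODE M21 annotation gives for this gene. Ifi203 also holds 1 response element, likewise downstream of its GENCODE start, Irf1 holds a gamma-activated site and no response element, and none of the 3 motifs was found in the Irf7 window. The NF-kB motif was not found in any of the 8 windows. Among all 27025 promoters of the table, 3.04% held the response element, 7.18% the gamma-activated site and 0.337% the NF-kB motif. These are matches of letters in 1 window per gene and not measured binding. In GENCODE M21 on mm10 the genes themselves lie at chr19:34640871-34650009 (Ifit1), chr19:34583531-34588731 (Ifit3), chr4:156199424-156200818 (Isg15), chr8:71534255-71537456 (Bst2), chr3:142620602-142638008 (Gbp2), chr1:173920407-173942672 (Ifi203), chr11:53770014-53778374 (Irf1) and chr7:141262706-141266481 (Irf7).

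The raw table held 24695 cells, of which 24672 passed limits of 500 detected genes and of 20% for the mitochondrial share of their UMIs (unique molecular identifiers, the counted molecules). Cells were taken as Müller glia when at least 3 of Glul, Rlbp1, Dkk3, Car14, Crym and Slc1a3 had a UMI, Pax2 was at 0 and they did not show at least 3 of 12 leukocyte markers with at least 5 UMIs. This gate kept 24266 cells, with 7504, 8679 and 8083 from runs 1, 2 and 3, and no interferon gene took part in it. The label was read from 10 Müller markers, 6 of which also set the gate, and these summed to 14052, 12184 and 11437 CPM (counts per 1,000,000 UMIs) in the 3 runs, while the 12 leukocyte markers, also part of the gate, summed to 9.64, 5.97 and 3.78 CPM. Other cells were not fully absent, since rod markers stood at 980 to 1141 CPM and endothelial and mural markers at 141 to 177 CPM. Between 83 and 108 cell barcodes were shared by each pair of runs. No doublet caller was run and doublets were kept, so the median UMI counts of the classes compared are given beside their values.

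All 9 genes were highest in run 2. Ifit1 and Ifit3, which act against foreign RNA, stood at 92.6, 190.5 and 91.9 CPM and at 120.5, 319.4 and 121.9 CPM in runs 1, 2 and 3. Isg15, a ubiquitin-like modifier, stood at 79.8, 349.6 and 130.5 CPM. Bst2, the tetherin that holds budding viruses at the cell surface, stood at 170.4, 389.4 and 236.9 CPM. In each of these 4 genes runs 1 and 3 lay nearer to each other than to run 2. Gbp2, a guanylate-binding GTPase, stood at 31.7, 218.5 and 49.4 CPM. Iigp1, an immunity-related GTPase that acts on the vacuoles of intracellular pathogens, stood at 2.29, 43.7 and 7.95 CPM. Ifi203, a nuclear protein of the PYHIN family, stood at 1.10, 15.4 and 1.44 CPM. For these 3 genes the ratio of run 2 to each of the other runs was wider than for the first 4. Among the transcription factors, Irf1 stood at 17.5, 82.3 and 67.4 CPM, and Irf7 at 46.1, 95.9 and 55.4 CPM. Irf1 was the exception, with run 3 close to run 2 and run 1 apart.

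**Figure D1:**
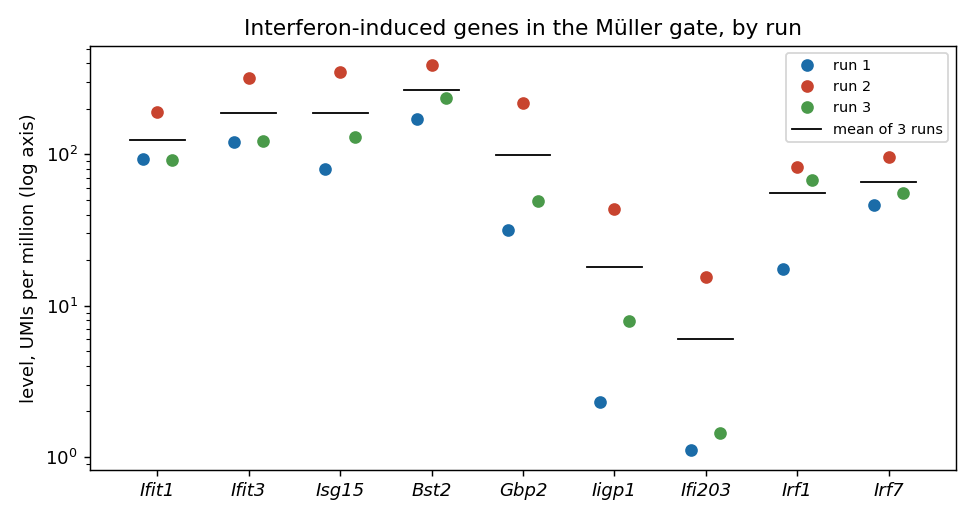
Levels in CPM of the 9 genes in Müller glia, on a log axis, with 1 point per run and a bar at the mean of the 3 runs. Run 2 is the highest point for each of the 9 genes, from 1.22 times run 3 for Irf1 to 10.7 times run 3 for Ifi203.

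As means over the 3 runs the levels were 125 ± 56.7 CPM for Ifit1, 187 ± 114 for Ifit3, 187 ± 143 for Isg15, 266 ± 112 for Bst2, 99.9 ± 103 for Gbp2, 18.0 ± 22.5 for Iigp1, 6.0 ± 8.18 for Ifi203, 55.8 ± 33.9 for Irf1 and 65.8 ± 26.5 for Irf7 (SD, n = 3). Ratios of run 2 to run 1 ran from 2.06 for Ifit1 to 19.1 for Iigp1. Of 12521 genes with a mean of at least 1 CPM, 25.2% were highest in run 2, and 0.663% were over 2-fold above both other runs, as 6 of the 9 genes were (Ifit1, Ifit3, Isg15, Gbp2, Iigp1 and Ifi203). Each run is 1 library, so this difference has no replicate check, and the median gene stood at 0.969 times run 1 and 0.991 times run 3. Other interferon-related genes followed the same order in part: 31 of 33 effectors of the type I pathway, 11 of 11 guanylate-binding and immunity-related GTPases and 4 of 4 PYHIN genes were highest in run 2, against 9 of 14 receptor and JAK-STAT genes. Ccl2 itself stood at 41.1, 647 and 95.1 CPM, while Igfbp2 stood at 1512, 1165 and 1211 CPM.

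To compare shares of cells at 1 depth, each cell was thinned to 3500 UMIs. Ifit3 then had a UMI in 25.8%, 41.5% and 27.0% of cells in runs 1, 2 and 3, and Isg15 in 16.4%, 36.5% and 22.5%. Gbp2 had one in 10.2%, 24.0% and 13.6%, and Iigp1 in 0.573%, 6.42% and 1.53%. For Gbp2 the share in run 2 stood less far above run 1 than the level did. Without thinning the mean shares over the runs were 52.2% for Ifit3, 41.1% for Isg15, 32.7% for Gbp2 and 5.34% for Iigp1. With each cell thinned to 3500 UMIs, 36.0%, 16.9% and 27.4% of cells had none of the 9 genes.

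The genes were not particular to the gate. In the cells set apart as leukocytes (53, 28 and 11 in the 3 runs) Bst2 stood at 706 ± 119 CPM and Ifi203 at 57.0 CPM, against 266 and 6.0 CPM in the gate. In the 65, 81 and 75 cells with a Pax2 UMI, Ifit1 stood at 286 ± 33.9 CPM and Irf7 at 187 CPM (means of 3 runs). No class in the table is known to lack these genes, so the share that free RNA could give was not set.

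In run 2 the UMIs of several interferon-induced genes lay largely in cells that also held much Ccl2. Ccl2-high cells, with at least 10 Ccl2 UMIs per 10,000, numbered 31, 845 and 110 in runs 1, 2 and 3 (0.413%, 9.74% and 1.36% of the gate). Ccl2-low cells, with fewer than 1 per 10,000, numbered 7032, 6325 and 7062, and 93 of the high cells lay just above the limit, at up to 12 per 10,000. In run 2 the Ccl2-high cells, 9.74% of the gate by count, held 82.0% of all Iigp1 UMIs, 69.7% of those of Ifi203 and 68.3% of those of Gbp2. They held 48.6% of the UMIs of Irf1, 48.3% of Isg15, 46.0% of Ifit1, 45.0% of Ifit3, 32.3% of Irf7 and 31.5% of Bst2. In run 1 the few Ccl2-high cells held 2.03% of the Gbp2 and Iigp1 UMIs, and in run 3 they held 6.27%. The distance between runs was smaller in Ccl2-low cells alone, where run 2 over run 1 was 1.15 for Ifit1, 1.89 for Gbp2 and 2.44 for Iigp1, against 2.06, 6.88 and 19.1 in the whole gate. In Ccl2-low cells run 2 was still the highest of the 3 for 7 genes, while Iigp1 and Irf1 were highest in run 3.

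Levels rose with Ccl2 by steps in run 2, while in runs 1 and 3 the course differed between genes. From the class under 1 through those of 1 to 5, 5 to 10, 10 to 30 and 30 or more Ccl2 UMIs per 10,000, Gbp2 stood in run 2 at 61.5, 99.7, 320, 694 and 1576 CPM. Iigp1 stood at 4.39, 17.0, 59.5, 149 and 391 CPM along the same steps, and Ifit3 at 182, 216, 484, 849 and 1386 CPM. Each of the 3 genes rose at every step of run 2, where every class held at least 255 cells. In run 3 Gbp2 stood at 46.1, 47.4, 76.0, 129 and 385 CPM. Ifit3 stood there at 124, 96.2, 110, 142 and 515 CPM, with 23 cells in the last class. The rise of Ifit3 in run 3 was therefore seen mainly in the last step, and the lower steps lay near the level of Ccl2-low cells. Over the first 4 classes of run 1 Gbp2 stood at 32.5, 18.4, 37.2 and 29.1 CPM. Ifit3 stood there at 124, 68.2, 83.5 and 185 CPM. The last class of run 1 held only 4 cells, at 355 CPM for Gbp2 and 1143 CPM for Ifit3. Iigp1 rose at every step of run 1, at 1.80, 2.29, 15.7, 38.9 and 92.7 CPM, with 6 UMIs in the last class. In run 3 Iigp1 stood at 5.52, 15.9, 27.6, 17.6 and 105 CPM. Bst2 rose at every step of both runs, from 167 to 278 CPM in run 1 and from 212 to 820 CPM in run 3.

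**Figure D2:**
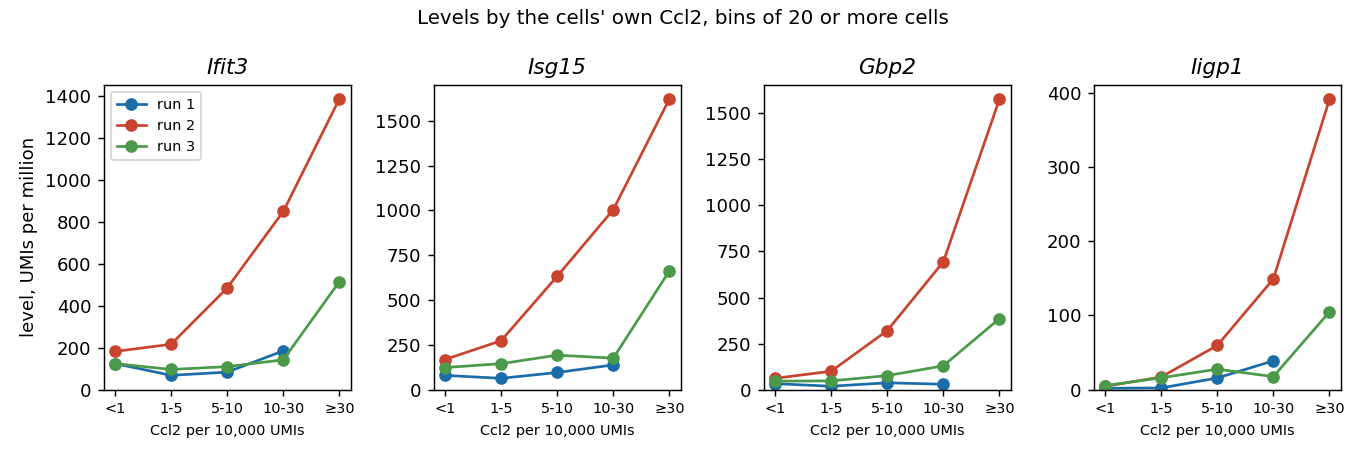
Levels in CPM of Ifit3, Isg15, Gbp2 and Iigp1 (linear axes) against classes of Ccl2 UMIs per 10,000 in Müller glia, with 1 line per run and a point only where a class held at least 20 cells. The lines of run 2 climb at every step, to 1386 CPM for Ifit3 and 1576 CPM for Gbp2, while those of run 3 climb mainly in the last class.

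As shares of summed UMIs, Ccl2-high cells carried more of the interferon-induced RNAs than Ccl2-low cells. Ifit1 stood at 305, 708 and 188 CPM in the Ccl2-high cells of runs 1, 2 and 3 and at 92.0, 106 and 92.2 CPM in the Ccl2-low cells. Isg15 stood at 266, 1363 and 276 CPM against 79.6, 168 and 123 CPM. Gbp2 stood at 65.6, 1206 and 182 CPM against 32.5, 61.5 and 46.1 CPM. For these 3 genes every run of Ccl2-high cells lay above every run of Ccl2-low cells, and run 2 lay far above the others. For Gbp2 in run 1 this rested on 4 cells with 23 UMIs, since the other 27 Ccl2-high cells stood at 29.1 CPM, below the Ccl2-low cells of that run. The same 4 cells held 83 UMIs of Isg15, and the other 27 stood at 138 CPM, below the Ccl2-low cells of run 2. Iigp1 stood at 44.9, 290 and 35.5 CPM against 1.80, 4.39 and 5.52 CPM. Ifit3 stood at 292, 1160 and 219 CPM against 124, 182 and 124 CPM, and Bst2 at 269, 990 and 487 CPM against 167, 267 and 212 CPM. Iigp1, Ifit3 and Bst2 also did not overlap between the classes. Without those 4 cells Ifit3 stood at 185 CPM in the Ccl2-high cells of run 1, little above the 182 CPM of Ccl2-low cells in run 2. Ifi203 stood at 1.73, 87.0 and 5.07 CPM against 1.15, 3.31 and 1.37 CPM, Irf1 at 32.8, 323 and 125 CPM against 17.4, 37.3 and 63.2 CPM, and Irf7 at 53.5, 250 and 74.2 CPM against 48.5, 71.5 and 56.4 CPM. These 3 genes overlapped between the classes, because the Ccl2-high cells of run 1 stood low. In all, 6 of the 9 genes did not overlap, against 12.9% of the 14362 genes tested that lay higher in this way.

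By edgeR's quasi-likelihood test on summed UMIs with run as a block and Benjamini-Hochberg adjustment over all genes tested, 8 of the 9 genes were higher in Ccl2-high cells, against 8.63% of all genes. The log2 changes were 4.63 ± 0.61 (SE) for Iigp1 (adjusted p = 0.00196), 3.72 ± 0.62 for Ifi203 (0.00492) and 2.60 ± 0.54 for Gbp2 (0.0121), by edgeR. Among the antiviral effectors, Isg15 rose by 2.02 ± 0.32 (edgeR adjusted p = 0.00389), Ifit1 by 1.88 ± 0.29 (0.00361), Ifit3 by 1.62 ± 0.32 (0.0100) and Bst2 by 1.31 ± 0.21 (0.00447). Of the transcription factors, Irf1 rose by 1.87 ± 0.42 (edgeR adjusted p = 0.0173), and Irf7 did not pass, at 0.94 ± 0.31 (0.0651). All 9 genes lay higher in Ccl2-high cells in runs 2 and 3, and so did all but Ifi203 in run 1. For Gbp2 and Irf7 in run 1 this came from the 4 cells with the most Ccl2. The other 27 stood at 29.1 and 36.9 CPM, below the 32.5 and 48.5 CPM of Ccl2-low cells. Ifi203 had 1 UMI in the Ccl2-high cells of run 1, below the 5.18 CPM that 3 counts stand for there, which set no direction. Without run 2 Ifi203 no longer passed (log2 1.57, edgeR adjusted p = 0.227), and without run 3 Irf7 did (1.17). Across the removal of each run the changes spanned 1.64 to 3.25 for Gbp2, 3.37 to 5.55 for Iigp1, 0.98 to 2.03 for Ifit3 and 0.94 to 2.33 for Irf1, the lowest without run 2 in each case.

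The other classes of interferon-related genes differed in how many members moved with Ccl2. Of the guanylate-binding and immunity-related GTPases, 14 of 14 tested were higher (median log2 3.65 against -0.06 for all genes), among them Igtp at 2.13, Gbp7 at 1.73 and Gbp3 at 1.62. Of the PYHIN genes, 4 of 4 were higher (median 3.82), with Mnda at 3.88, Mndal at 3.75 and Ifi204 at 2.90. Of the effectors of the type I pathway 19 of 35 were higher and 1, Ifit1bl1, was lower (median 1.41). The 3 most abundant effectors did not pass the test, Ifitm3 at 0.76, Oasl2 at 0.41 and Ifi27 at 0.02. Of the sensors of foreign nucleic acid, 4 of 13 were higher, including Ifih1 at 1.34 and Ddx58 at 0.92, genes that the effector list also holds. Of the NF-kB targets 17 of 20 were higher (median 2.00), with the inhibitor Nfkbia at 2.15 but Sod2 at 0.47 and Cebpb at 0.14 not passing. Of the receptors and JAK-STAT genes 2 of 15 were higher, Ifngr2 and Ptpn2, both named after their values were seen. The kinase gene Jak1 at 0.32, Socs3 at -0.83 and Irf9, the DNA-binding part of the type I complex, at 0.03 did not pass.

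Ccl2-high cells also differed in depth and in makeup. Their median UMI counts were 15621, 15672 and 11614 against 9506, 10761 and 9196 in Ccl2-low cells, and 83.9%, 34.6% and 48.2% of them were also Igfbp2-high. The Müller markers summed to 7411, 11164 and 8258 CPM in them against 14613, 12982 and 12116 CPM. Leukocyte markers summed to 13.8, 6.02 and 5.07 CPM against 9.52, 5.49 and 3.40 CPM, with 5, 12 and 4 of the 12 detected in the Ccl2-high cells, and rod markers to 487, 796 and 712 CPM against 1196, 1050 and 1142 CPM. In cells with 0 UMIs of all 12 leukocyte markers the same number of genes, 8 of 9, was called higher, a restriction chosen after the data were seen. The part of the Müller and rod markers and of depth in these results was not tested beyond this. As UMIs per cell in place of shares of the total, 9 of 9 were higher, against 29.8% of all genes, with the median of all genes at 0.34 on the log2 scale.

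**Figure D3:**
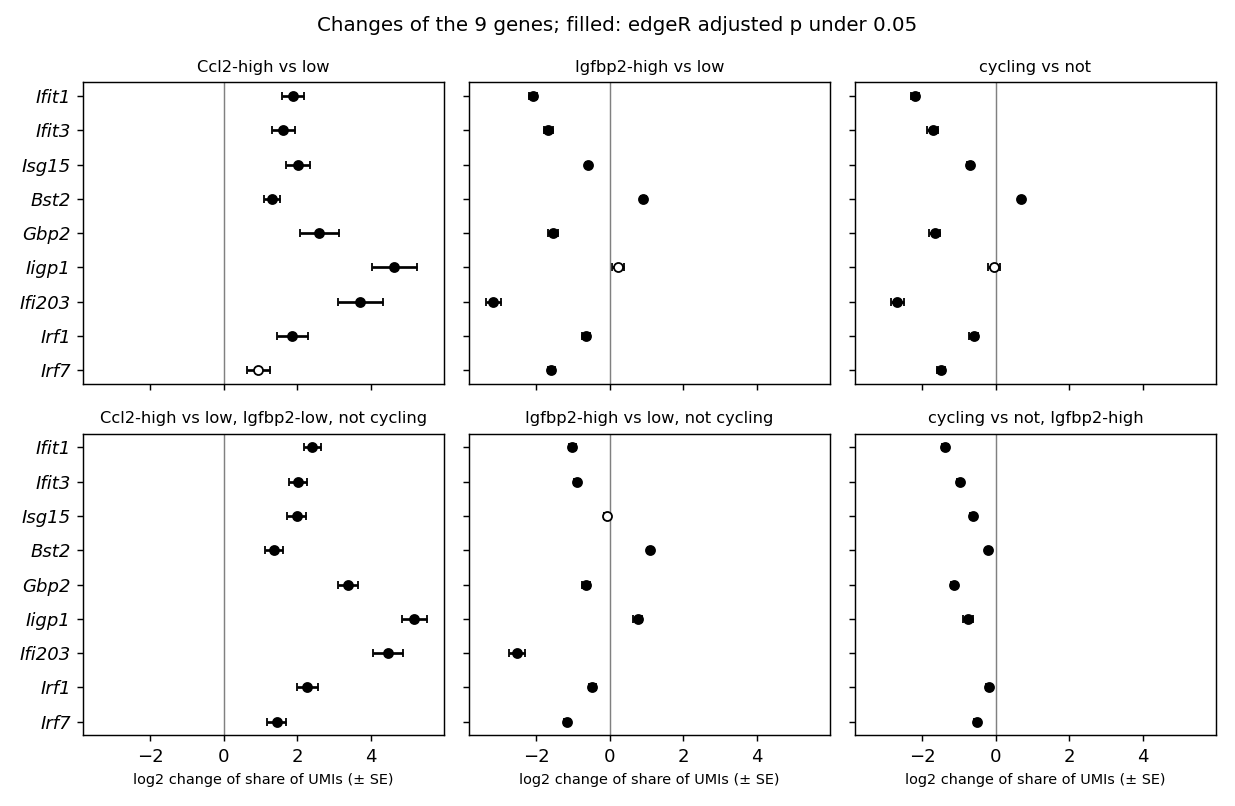
Log2 changes with SE of the 9 genes in 6 comparisons of cell classes within the Müller gate, with filled points where edgeR's adjusted p was under 0.05. In both Ccl2 panels all points lie above 0, and in the panel of cycling within Igfbp2-high cells, where Ifi203 was not tested, all lie below 0.

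Since the mix of Igfbp2 and cycling cells differed between the Ccl2 classes, the comparison was repeated in Igfbp2-low cells that did not cycle. This left 5, 431 and 44 Ccl2-high cells, with median UMI counts of 8518, 13436 and 7508, and 4227, 4071 and 4867 Ccl2-low cells, with medians of 8932, 10308 and 8519. Ifit1 stood at 701, 1171 and 547 CPM against 135, 155 and 136 CPM, and Gbp2 at 145, 1993 and 467 CPM against 45.7, 88.6 and 58.8 CPM. Ifit3 stood at 604, 1619 and 539 CPM against 178, 256 and 176 CPM, and Irf1 at 96.7, 369 and 195 CPM against 20.6, 45.0 and 79.4 CPM. These 4 genes did not overlap between the classes, against 4.58% of all genes that lay higher in this way. In run 1 this rested on 5 Ccl2-high cells, with 6 UMIs of Gbp2 and Iigp1 together. Irf1 at 96.7 CPM lay little above the 72.5 CPM that 3 counts stand for there. Isg15 stood at 48.4, 1718 and 499 CPM against 91.7, 208 and 154 CPM. Iigp1 stood at 0, 347 and 89.8 CPM against 1.79, 5.30 and 4.71 CPM, and Ifi203 at 0, 175 and 15.8 CPM against 1.59, 5.23 and 2.16 CPM. For these 3 genes runs 2 and 3 lay above their Ccl2-low counterparts, while the 5 Ccl2-high cells of run 1 set no level, since 3 counts there stand for 72.5 CPM. Bst2 stood at 169, 790 and 396 CPM against 122, 225 and 163 CPM, and Irf7 at 72.5, 351 and 193 CPM against 69.4, 97.7 and 78.2 CPM.

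**Figure D4:**
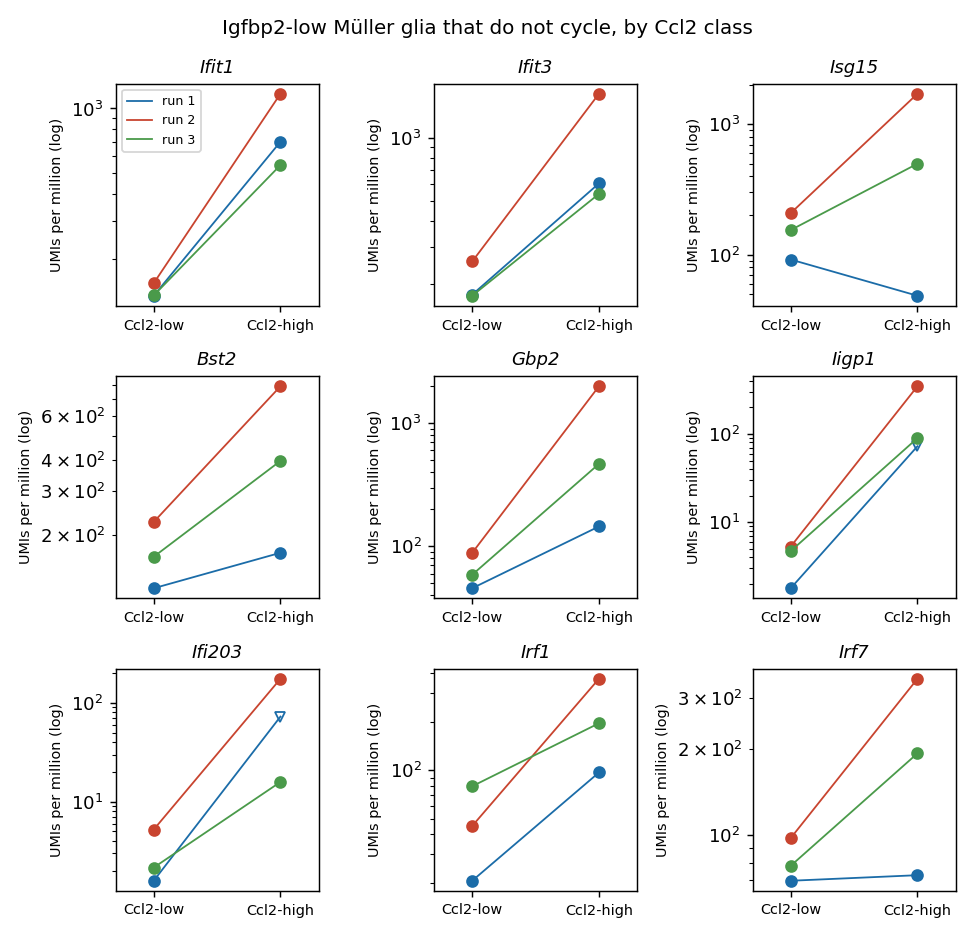
Levels in CPM (log axis) of the 9 genes in Ccl2-low and Ccl2-high Müller glia that were Igfbp2-low and did not cycle, with a line joining the classes of each run. Open triangles mark 0 UMIs in the 5 Ccl2-high cells of run 1, drawn at the limit of 3 counts. In runs 2 and 3 all 9 genes lie higher in Ccl2-high cells.

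In this restricted comparison edgeR called 9 of 9 genes higher, against 4.18% of the 13263 genes tested. The log2 changes were 5.19 ± 0.35 (SE) for Iigp1, 4.46 ± 0.41 for Ifi203, 3.37 ± 0.27 for Gbp2, 2.41 ± 0.24 for Ifit1, 2.26 ± 0.29 for Irf1, 2.02 ± 0.24 for Ifit3, 1.98 ± 0.26 for Isg15, 1.44 ± 0.27 for Irf7 and 1.37 ± 0.25 for Bst2, with edgeR adjusted p between 2.22e-46 for Iigp1 and 5.01e-06 for Irf7. Those p-values rest on a class of 5 cells in run 1, where Isg15, Iigp1 and Ifi203 were not above their Ccl2-low levels. They also do not follow each gene's own spread between runs, and they do not show that the 3 runs moved alike. On simulated counts this fit recovered 13% of 2-fold changes, with 13.3% false calls. DESeq2 called 7 of the 9, without Isg15 (1.44, adjusted p = 1.00) and Irf7 (1.31, 0.0529). Without run 2, edgeR called 6, having lost Bst2 (0.97), Ifi203 (2.70) and Irf7 (1.02), and the genes called higher fell from 555 to 76 (860 without run 3). Among the effectors of the type I pathway 28 of 32 were higher (median 1.85 against -0.08 for all genes), as were 11 of 11 GTPases (2.74), 18 of 19 NF-kB targets (2.22) and 3 of 14 receptor and JAK-STAT genes (0.62).

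Igfbp2-high cells, with at least 5 Igfbp2 UMIs per 10,000, numbered 2022, 2264 and 1966, and Igfbp2-low cells, with fewer than 1, numbered 4387, 5263 and 5290. Most of the interferon-induced genes took a smaller share of the RNA in Igfbp2-high cells, and Bst2 took a larger one. Ifit1 stood at 30.9, 79.6 and 26.5 CPM in Igfbp2-high cells and at 142, 279 and 143 CPM in Igfbp2-low cells. Ifit3 stood at 42.8, 178 and 49.6 CPM against 182, 427 and 180 CPM, and Irf7 at 17.5, 51.8 and 24.9 CPM against 69.2, 130 and 80.4 CPM. In these 3 genes the classes did not overlap. Of all genes 40.3% lay lower in this way, so this alone does not set these genes apart. Gbp2 stood at 10.6, 101 and 29.6 CPM against 47.3, 311 and 64.8 CPM. Isg15 stood at 58.5, 281 and 97.0 CPM against 95.4, 400 and 160 CPM. Both were lower within every run but overlapped between runs, since run 2 was high in both classes. Bst2 went the other way, at 232, 497 and 325 CPM against 123, 301 and 170 CPM. Iigp1 stood at 2.35, 39.9 and 10.8 CPM against 2.48, 44.1 and 6.19 CPM, lower in runs 1 and 2 and higher in run 3.

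With edgeR 7 of the 9 genes were lower in Igfbp2-high cells, against 41.9% of the 14562 genes tested, and 1 was higher, against 40.2%. The changes were -3.17 ± 0.20 (SE, log2) for Ifi203, -2.08 ± 0.10 for Ifit1, -1.67 ± 0.13 for Ifit3, -1.60 ± 0.10 for Irf7 and -1.56 ± 0.14 for Gbp2, with edgeR adjusted p from 1.46e-07 for Ifit1 to 6.36e-06 for Gbp2. Irf1 at -0.64 ± 0.10 (edgeR adjusted p = 0.00037) and Isg15 at -0.59 ± 0.06 (1.14e-05) fell less. Bst2 rose by 0.91 ± 0.06 (edgeR adjusted p = 1.12e-06), and Iigp1 did not pass at 0.22 ± 0.16 (0.23), though it did without run 2 (0.54). These are shares of a larger total, since the median Igfbp2-high cell held 18963, 22047 and 19835 UMIs in the 3 runs against 8943, 10396 and 8527. As UMIs per cell, where the median of all genes rose by 0.99, 4 of the 9 genes were higher, against 73.6% of all genes, Bst2 by 1.94, Iigp1 by 1.27, Isg15 by 0.44 and Irf1 by 0.38, and 5 were lower, against 13.1%, from Ifi203 at -2.15 to Gbp2 at -0.54. Müller markers summed to 8615, 7962 and 7391 CPM in Igfbp2-high cells against 18424, 15497 and 14603 CPM, and leukocyte markers to 12.8, 9.52 and 7.62 CPM against 7.03, 3.16 and 0.961 CPM. In cells with 0 UMIs of all 12 leukocyte markers edgeR again called 7 genes lower and 1 higher, and the part of the Müller markers in the result was not tested.

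Of the listed effectors of the type I pathway 29 of 36 were lower in Igfbp2-high cells and 2 were higher (median -0.71 against -0.04 for all genes). Of the GTPases 8 of 13 were lower and 3 higher, and of the receptors and JAK-STAT genes 9 of 15 were lower and 4 higher. For the NF-kB targets the counts were 9 of 20 lower and 8 higher, near the 41.9% and 40.2% of all genes.

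Most Igfbp2-high cells were cycling, 72.9%, 81.9% and 79.7% in the 3 runs against 1.71%, 1.86% and 1.61% of Igfbp2-low cells, so the comparison was also made without cycling cells. In the 548, 411 and 399 Igfbp2-high cells that did not cycle, the median UMI counts were 14894, 16450 and 14387, against 8913, 10360 and 8494 in the Igfbp2-low cells. Iigp1 stood at 5.38, 59.0 and 13.0 CPM in these Igfbp2-high cells, against 2.51, 44.8 and 6.19 CPM. Bst2 stood at 265, 551 and 338 CPM against 122, 300 and 167 CPM. Both were higher in every run. Ifit1 stood at 65.9, 160 and 50.2 CPM against 144, 283 and 145 CPM, lower in every run. By edgeR 2 of the 9 genes were higher, against 32.6% of all genes, Bst2 at 1.10 ± 0.06 (SE, log2; adjusted p = 1.5e-10) and Iigp1 at 0.76 ± 0.13 (7.07e-05). A further 6 were lower, against 33.8%, Ifi203 at -2.53 ± 0.21, Irf7 at -1.16 ± 0.07, Ifit1 at -1.03 ± 0.10, Ifit3 at -0.88 ± 0.08, Gbp2 at -0.65 ± 0.10 and Irf1 at -0.47 ± 0.08, and Isg15 did not pass at -0.08 ± 0.07 (edgeR adjusted p = 0.279). Gbp2 and Iigp1 thus stood on opposite sides of 0, a difference between genes that was not tested, and the direction of Iigp1 did not hold in the subset of cells kept in the authors' normalized table, at -0.09.

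Cycling cells, with at least 2 UMIs over Top2a, Mki67, Cdk1 and Ccnb1, numbered 1614, 2100 and 1780 against 5890, 6579 and 6303 other cells. Ifit1 stood at 24.6, 73.8 and 24.6 CPM in cycling cells and at 132, 268 and 135 CPM in the others, and Irf7 at 17.1, 54.8 and 24.7 CPM against 63.0, 123 and 75.2 CPM. Neither gene overlapped between the classes, but 39.7% of all genes lay lower in this way, so this alone does not set these genes apart. Gbp2 stood at 8.49, 102 and 25.8 CPM against 45.3, 296 and 64.6 CPM, and Bst2 at 218, 489 and 318 CPM against 143, 323 and 185 CPM. Run 2 was the highest in both classes for each of these 4 genes, cycling or not. By edgeR 7 of the 9 genes were lower in cycling cells, against 42.5% of the 14698 genes tested, from Ifi203 at -2.69 ± 0.18 (SE, log2) and Ifit1 at -2.20 ± 0.10 to Isg15 at -0.71 ± 0.07 and Irf1 at -0.60 ± 0.11. Bst2 was higher at 0.69 ± 0.05 (edgeR adjusted p = 1.09e-06), where the share of all genes called higher was also 39.7%, and Iigp1 did not pass at -0.04 ± 0.16 (0.808). As UMIs per cell, with the median of all genes at 1.03, 4 of the 9 were higher, against 74.6% of all genes. The median UMI counts of cycling cells were 20272, 23149 and 20974, against 8978, 10191 and 8569 in the others. Müller markers summed to 8334, 7953 and 7300 CPM in them against 17378, 15009 and 14106 CPM, and rod markers to 663, 561 and 659 CPM against 1420, 1260 and 1366 CPM. Leukocyte markers summed to 12.2, 8.97 and 7.02 CPM against 8.17, 3.96 and 1.69 CPM, and the median mitochondrial share was 3.14%, 3.0% and 3.39% against 5.08%, 4.95% and 5.88%. In cells with 0 UMIs of the leukocyte markers edgeR again called 7 genes lower and 1 higher, and the part of the other differences was not tested.

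Within Igfbp2-high cells 1474, 1853 and 1567 cycling cells, with median UMI counts of 21037, 23793 and 21638, were set against the 548, 411 and 399 others. Bst2 stood there at 223, 489 and 323 CPM in cycling cells against 265, 551 and 338 CPM. It was lower in each run, the opposite of its order over the whole gate. By edgeR 8 of the 8 genes tested were lower, against 27.6% of the 13116 genes, with Ifit1 at -1.38 ± 0.07 (SE, log2), Gbp2 at -1.15 ± 0.07, Ifit3 at -0.99 ± 0.07, Iigp1 at -0.75 ± 0.14, Isg15 at -0.62 ± 0.07, Irf7 at -0.51 ± 0.08, Bst2 at -0.20 ± 0.04 and Irf1 at -0.19 ± 0.08. Ifi203 was too low to be tested. DESeq2 called 6 of the 8, without Iigp1 and Irf1. Irf1 (edgeR adjusted p = 0.0436) did not pass without run 2 or without run 3, and as UMIs per cell 2 of the 8 were higher and 3 lower, against 70.8% and 5.22% of all genes, with the median of all genes at 0.58.

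Whether these differences depended on each other was tested as interactions. The change with Ccl2 did not pass as different between Igfbp2-high and Igfbp2-low cells for any of the 9 genes by edgeR, where 3.33% of all genes did, nor by DESeq2, and the lowest unadjusted p of edgeR among them was that of Bst2 (0.0683). In that fit the profile of the few Ccl2-high, Igfbp2-low cells of run 1 was dropped, and the answer depended on single runs. Without run 2 edgeR called Iigp1 (-1.85), Gbp2 (-1.07) and Bst2 (-0.84) lower in their Ccl2 change in Igfbp2-high cells, and without run 3 it called Ifit3 (0.72), Irf7 (0.68) and Ifit1 (0.55) higher. The change of Bst2 with cycling did differ, by -0.53 ± 0.14 (SE, log2; edgeR adjusted p = 0.0214), against 8.69% of all genes called in this term, and it did not pass without run 2 (-0.63, adjusted p = 0.0736).

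Ifit1, Ifit3 and Isg15 parted from Gbp2 and Iigp1 in the cells with the most Ccl2, mainly in runs 2 and 3. In Ccl2-high cells there were 7.81, 2.16 and 3.14 UMIs of the first group for each UMI of the second in runs 1, 2 and 3, and in Ccl2-low cells 8.62, 6.92 and 6.58. The ratio was lower in Ccl2-high cells in each run, by little in run 1. In run 1 this rested on 64 UMIs of the second group and on Iigp1 among them. Of its 31 Ccl2-high cells, 27 held 10 to 30 Ccl2 UMIs per 10,000, with 20 UMIs of Iigp1. Gbp2 stood in those 27 cells at 29.1 CPM, below the 32.5 CPM of Ccl2-low cells. Ifit1, Ifit3 and Isg15 stood there above their Ccl2-low levels, so Gbp2 alone did not show the lower ratio in run 1. Among Igfbp2-low cells that did not cycle it was 9.33, 1.93 and 2.84 against 8.52, 6.59 and 7.33, and in run 1, where its 5 Ccl2-high cells held 6 UMIs of the second group, it was not lower. Between Igfbp2-high and Igfbp2-low cells the ratio had no common direction over the runs, at 10.2, 3.82 and 4.29 against 8.44, 3.11 and 6.81, nor did it between cycling and other cells, at 11.1, 3.77 and 4.50 against 8.30, 3.14 and 6.49. Within Igfbp2-high cells it was higher in cycling cells in each run, at 11.1, 3.96 and 4.41 against 8.98, 3.34 and 3.90.

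Cells with a UMI of Gbp2 or Iigp1 mostly also had a UMI of Ifit1, Ifit3 or Isg15, in 59.2%, 82.3% and 66.3% of cases over runs 1, 2 and 3, against 35.5%, 51.2% and 39.5% of the cells without one. At 3500 UMIs per cell, cells with Gbp2 or Iigp1 made up 10.4%, 25.2% and 14.2% of the gate in runs 1, 2 and 3. Cells with Ifit1, Ifit3 or Isg15 made up 38.0%, 59.0% and 43.3%, and cells with both groups 6.18%, 20.7% and 9.43%. The product of the separate shares would give 3.97%, 14.9% and 6.16%. Both groups met in the same cells more often than this product in all 3 runs, as a description of cells that share a library. Gbp2 or Iigp1 alone was seen in 4.26%, 4.46% and 4.80% of cells, nearly the same share in each run. In Ccl2-high cells of run 2, 97.0% had the first group (Ifit1, Ifit3 or Isg15), 82.8% had Gbp2 or Iigp1 and 82.6% had both. In the Ccl2-high cells of run 3 these shares were 50%, 19.1% and 16.4%, and in the 31 of run 1 they were 32.3%, 12.9% and 9.68%. The Ccl2-high cells of runs 1 and 3 therefore did not resemble those of run 2 in this measure. In run 1 the 32.3% with the first group lay below the 38.0% of the whole gate. In Igfbp2-high cells Ifit1, Ifit3 or Isg15 was seen in 19.4%, 44.5% and 27.4%, and Gbp2 or Iigp1 in 3.81%, 17.8% and 8.90%. In Ccl2-low, Igfbp2-low cells that did not cycle the shares were 45.2%, 60.4% and 48.7%, and 12.9%, 20.1% and 15.5%.

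**Figure D5:**
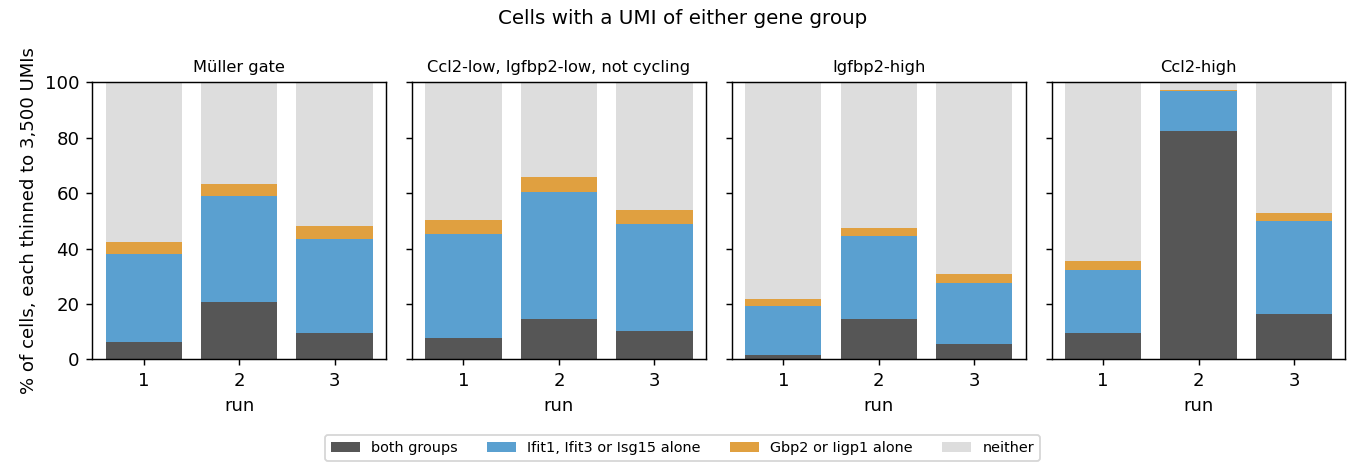
Percent of Müller glia, each thinned to 3500 UMIs, with a UMI of both groups (Ifit1, Ifit3 or Isg15, and Gbp2 or Iigp1), of either alone or of neither, stacked for each run in the gate, in Ccl2-low and Igfbp2-low cells that did not cycle, in Igfbp2-high and in Ccl2-high cells. The bar of Ccl2-high cells in run 2 is almost filled by cells with both groups (82.6%), which in run 3 make up 16.4%.

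The 12 profiles made by run, Ccl2 class and Igfbp2 class gave a further view of the parting. Among 5648 genes with a mean of at least 20 CPM, log2(CPM + 1) centred within run was most like that of Ifit3 in Ifit1 (Pearson r = 0.99), Gbp3 (0.98), Nub1 (0.97), Gbp2 (0.97) and Xaf1 (0.96). The genes most like Gbp2 were Gbp3, B2m, Trim30a, Tap2 and H2-K1, each at 0.98. Isg15 was less like Ifit3 (0.75) and Gbp2 (0.82), Iigp1 stood at 0.59 and 0.70, and Bst2 at 0.33 and 0.50, while Irf1 and Irf7 stood at 0.93 and 0.96 with Ifit3. By this measure Gbp2, Irf1 and Irf7 lay with Ifit1 and Ifit3, and Bst2 lay apart. The lower values of Isg15 and Iigp1 rested in part on the profile of 5 Ccl2-high, Igfbp2-low cells of run 1. Without it the r with Ifit3 was 0.94 for Isg15, 0.81 for Iigp1 and 0.39 for Bst2, and that with Gbp2 was 0.96, 0.88 and 0.55. The 5 genes most like each also changed in part without it, with Ifit1 and Gbp3 still among those of Ifit3, and Gbp3 and Trim30a among those of Gbp2. The profiles share libraries and are not independent, so the correlations are a description over 12 points. In the profiles themselves, the 292 Ccl2-high and Igfbp2-high cells of run 2 stood at 1161 CPM for Bst2, 524 CPM for Gbp2, 327 CPM for Ifit1 and 232 CPM for Iigp1, while the 53 such cells of run 3 stood at 43.3 CPM for Ifit1 and 87.5 CPM for Ifit3, against 23.2 and 43.8 CPM in the Ccl2-low, Igfbp2-high cells of that run.

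The interferon genes that could be read were close to undetected in these cells. Of 7 interferon genes listed, 3 had a row in the table. The others, Ifng among them, had none, and neither did any gene named Ifna, so their levels are not known. Ifnb1, the gene of interferon beta, had 0 UMIs in run 1, 18 in run 2 and 0 in run 3, where 0 counts allow up to 0.0324 CPM in run 1 and 0.0314 CPM in run 3. The 18 UMIs lay in 8 cells, with at most 8 in a cell, and 14 of them lay in 5 Ccl2-high cells. Ifnb1 and Ifnk were named after their values were seen. Ifnk had 19, 0 and 0 UMIs, and Ifnz 22, 27 and 35.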

How the data were processed

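Single-cell 3′ libraries (10X version 2 chemistry) were sequenced on a NextSeq 500, per the labels' protocols. The deposited raw table is a matrix of UMI counts, genes by cells, that the authors made with Cell Ranger on mm10, per the submitters' processing notes, which also name Seurat 2.3.4. The deposited normalized table (13511 of the cells) held the natural log of 1 plus UMIs per 10000, checked on 500 rows, and served only as a choice of cells. Cell totals per run were 94858762, 122888236 and 97032672 UMIs.

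UMIs were summed per run and class, and classes were compared with edgeR 4.0.16 (quasi-likelihood, TMM, filterByExpr) with run as a block, since both classes of a run are the same library. The genes that set a class were left out after scaling, adjusted p-values (Benjamini-Hochberg, all genes tested) were read at 0.05, and each SE is the size of the log2 change divided by the square root of F. Shares of cells used cells thinned to 3500 UMIs (seed 1). On simulated counts with 200 changed genes, the Ccl2 fit recovered 79% of 2-fold and 11% of 1.5-fold changes with 7.22% false calls. The Ccl2 fit within Igfbp2-low cells recovered 13% and 0% with 13.3% false calls, and the Igfbp2 and cycling fits over the gate recovered 100% of both.

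The alternatives were RLE size factors, DESeq2 1.42.0, no low-count filter, no block, each run left out, classes set after thinning, all cells in place of the gate, and the cells of the normalized table. UMIs per cell, cells without leukocyte UMIs, and the likeness measure without its profile of 5 cells were added after the data were seen. The 9 genes and the lists were chosen with earlier results of these data known. The rule for names was all 9 genes, the 3 most abundant tested genes of each list, and the 5 genes most like Ifit3 and Gbp2. Of the genes this rule names, 1 is not reported here. In the last 600 bases of transcripts (GENCODE M21), 18.0% of 50-base windows of Ifit3 also occurred in Ifit3b, 5.08% of Isg15 in AC151275.1 and 0.907% of Ifi203 in Ifi203-ps, so their reads can be shared. Software was Python 3.11.15, R 4.3.3, numpy 2.4.6, scipy 1.17.1, pandas 2.3.3 and matplotlib 3.10.9.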

Additional observations from a re-analysis of the deposited data

Results flagged for a closer look

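The change of Bst2 with cycling differed between Igfbp2-high and Igfbp2-low cells, with an interaction of -0.53 ± 0.14 (SE, log2, edgeR adjusted p = 0.0214). Bst2 was 1 of the 9 genes, against 8.69% of all genes called in this term, so the call does not set the 9 genes apart. The term rested on 75, 98 and 85 cycling Igfbp2-low cells in runs 1, 2 and 3. With run 2 left out the adjusted p of edgeR was 0.0736 (-0.63). Within Igfbp2-high cells Bst2 stood at 223, 489 and 323 CPM in cycling cells against 265, 551 and 338 CPM in the others.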

How the results depend on the processing

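The limits of these values lie in 3 runs of 1 group without a control, in a run 2 that holds most Ccl2-high cells, and in classes that differ in depth. With 31 Ccl2-high cells in run 1, and 5 among Igfbp2-low cells that did not cycle, counts near 0 there set no level. Intervals over runs cover their spread only.

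Without the replicate block, which pairs the 2 classes of each run, 5 of the 9 genes were higher in Ccl2-high cells, against 8 with it. For Igfbp2 the block-free fit called 0 higher and 2 lower, and for cycling also 0 and 2. For Igfbp2 among cells that did not cycle it called 1 higher and 1 lower. For cycling among Igfbp2-high cells it called 0 lower, and 2334 of all genes lower against 3623.

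As UMIs per cell, more genes were higher in the deeper class by construction, since the total is no longer divided out. All genes called higher and lower were then 4282 and 589 for Ccl2, 10720 and 1914 for Igfbp2, 10968 and 1718 for cycling, 8031 and 1809 for Igfbp2 in cells that did not cycle, and 9285 and 684 for cycling in Igfbp2-high cells, and 156 were lower for Ccl2 among Igfbp2-low cells. Of the 9 genes, 4 were higher for Igfbp2 and 4 for cycling, and 2 higher and 3 lower for cycling in Igfbp2-high cells. Directions turned for Igfbp2 in Isg15 (0.44) and Irf1 (0.38), for cycling in Isg15 (0.37), Iigp1 (1.04) and Irf1 (0.48), for Igfbp2 in cells that did not cycle in Isg15 (0.46) and Irf1 (0.062), and for cycling in Igfbp2-high cells in Bst2 (0.40), Irf1 (0.42) and Irf7 (0.087).

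In the cells of the authors' normalized table, 287 genes were higher and 211 lower with Ccl2, and 714 were lower among Igfbp2-low cells. Iigp1 turned to -0.48 for Igfbp2 and to -0.086 in cells that did not cycle, where 1 of the 9 genes was higher. With all cells in place of the gate Isg15 turned there to 0.090. DESeq2 called 141 genes higher and 12 lower with Ccl2 among Igfbp2-low cells, against 555 and 307. In the interaction of Ccl2 and Igfbp2, RLE size factors called 104 genes higher and DESeq2 103, against 59. In that of cycling and Igfbp2, DESeq2 called 1238 lower, against 705, and Irf7 turned to -0.038 with RLE and -0.072 with DESeq2. The cause of these changes was not tested.

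Leaving out each run in turn, genes called with Ccl2 ran from 759 to 1348 higher and from 652 to 1425 lower, the lowest without run 1. Among Igfbp2-low cells they ran from 76 to 860 and from 7 to 702, the lowest without run 2 and the highest without run 3. For Igfbp2, 1 to 2 of the 9 genes were higher and Iigp1 lay between -0.078 and 0.54, for cycling Iigp1 lay between -0.33 and 0.14, and Isg15 lay between -0.17 and 0.018 for Igfbp2 in cells that did not cycle. In the interaction of Ccl2 and Igfbp2, 20 (without run 1) to 432 (without run 3) genes were higher and 49 (without run 1) to 532 lower, and 0 to 3 of the 9 were higher and 0 to 3 lower. Ifit3 lay there between -0.012 and 0.72, Isg15 between -0.42 and 0.030, Irf1 between -0.22 and 0.50 and Irf7 between -0.50 and 0.68. In that of cycling and Igfbp2, 128 to 255 genes were higher and 272 to 625 lower, both lowest without run 2, and 0 to 1 of the 9 lower. Isg15 lay between -0.43 and 0.011, Iigp1 between -0.47 and 0.52, Ifi203 between -1.05 and 0.0006 and Irf7 between -0.13 and 0.071.

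Without thinning, the mean shares of cells with a UMI were 33.7% for Ifit1, 52.2% for Ifit3, 41.1% for Isg15, 69.4% for Bst2, 32.7% for Gbp2, 3.39% for Ifi203, 30.4% for Irf1 and 36.9% for Irf7, against 20.3%, 31.4%, 25.1%, 42.7%, 15.9%, 1.52%, 14.4% and 18.1%.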
